A study of Mus musculus with 42 samples.

Results

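The genes described here are 50 genes of cell division and DNA replication, listed by their known roles. The list was drawn up with earlier results of these data known. Each gene was read from its probe set with the highest mean over the 42 arrays. A probe set of 1 gene was found for 49 of the 50 genes, out of 18194 genes measured in this way. Ccnb1, which encodes cyclin B1, had none and was not analysed here.

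The arrays came from *Fmr1* knockout (KO) and wild type (WT) C57BL/6 mouse embryos of 17 to 18 days post conception, with littermates pooled. All samples were labelled untreated. *Fmr1* encodes the RNA-binding protein FMRP, whose loss causes fragile X syndrome. Hippocampal culture and cortical culture, both matured for 14 days in vitro, had 5 KO and 5 WT arrays each. Primary hippocampus, the uncultured embryonic tissue, had 6 arrays of each genotype, and primary cortex had 5 of each. The mouse ID of the labels, such as KO 2221 or WT 2644, stands on arrays of several systems and was taken to name the litter, so that the tissues and the cultures of 1 litter are related samples. The pooling and the culture of mixed cells set the limits of the model: the cultures were grown in Neurobasal with B27. All 10 astrocyte markers were above background in them, beside all but 1 marker each of immature and of mature neurons. *Fmr1* itself was lower in KO than in WT in all 4 systems, with log2 differences between -0.99 and -0.90 and no overlap of the genotypes in any system. Where its probe set lies relative to the altered part of the gene was not determined.

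A dividing cell licenses its replication origins in G1 by loading the MCM helicase, fires them in S phase, and then condenses and separates its chromosomes in mitosis. Cyclins and their kinases drive these steps, and the CDK inhibitors of the CIP/KIP and INK4 families hold them back. Textbook cell biology assigns many of the replication genes to the E2F transcription factors and many of the mitosis genes to the MuvB complexes, which bind at CHR elements and act with CCAAT-binding NF-Y. In the embryonic forebrain the dividing cells are mainly radial glia and intermediate progenitors, while neurons have left the cycle, and in culture the cells that still divide are mainly of glial lineages.

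The promoters of 7 members are shown as examples of the sequence words usually looked for in these genes: E2F words in Mcm6, CHR words in Cdk1, Top2a and Mki67, only CCAAT in the printed stretches of Ccnb2 and Bub1, and none of the words in Cdkn1a. They are RefSeq sequences on GRCm38.p6, read on the strand of the gene, and end at or before the annotated gene. Capitals mark an E2F word (TTTCCCGC, TTTCGCGC, TTTGCCGC or TTTGGCGC), a CHR word (TTTGAA or TTCGAA) or CCAAT, each on either strand. The words were searched on both strands, and overlapping ones run together.
Mcm6, chr1:128359706-128359825, minus strand: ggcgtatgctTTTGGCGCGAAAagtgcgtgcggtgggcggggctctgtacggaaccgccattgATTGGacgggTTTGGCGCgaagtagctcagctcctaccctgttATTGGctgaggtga
Cdk1, chr10:69352913-69353032, minus strand: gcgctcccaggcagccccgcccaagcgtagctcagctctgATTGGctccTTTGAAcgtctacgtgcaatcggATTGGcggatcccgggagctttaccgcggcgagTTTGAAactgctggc
Ccnb2, chr9:70421555-70421674, minus strand: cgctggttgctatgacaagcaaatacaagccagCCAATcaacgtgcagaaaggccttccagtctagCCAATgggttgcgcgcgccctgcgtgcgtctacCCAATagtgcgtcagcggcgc
Bub1, chr2:127831860-127831979, minus strand: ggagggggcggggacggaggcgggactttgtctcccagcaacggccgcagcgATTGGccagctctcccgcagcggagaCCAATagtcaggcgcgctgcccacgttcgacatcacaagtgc
Top2a, chr11:99024200-99024309, minus strand: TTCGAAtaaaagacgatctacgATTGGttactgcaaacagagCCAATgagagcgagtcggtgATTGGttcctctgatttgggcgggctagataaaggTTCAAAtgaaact
Mki67, chr7:135716451-135716499, minus strand: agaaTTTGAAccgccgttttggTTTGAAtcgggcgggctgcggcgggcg
Cdkn1a, chr17:29090859-29090978, plus strand: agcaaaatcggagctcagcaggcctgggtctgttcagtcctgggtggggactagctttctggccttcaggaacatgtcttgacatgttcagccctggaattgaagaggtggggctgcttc

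A promoter window of 300 bases, reaching 250 bases before the start and 50 after it, was found for 38 of the 50 members. An E2F word lay in 9 of these 38 (23.7%), against 2.6% of 27025 genes with a window. The mitosis members here are the mitotic kinases, checkpoint and passenger proteins, the spindle and kinetochore proteins, Mki67 and Top2a. The replication members are the origin licensing and helicase genes and those of the clamp and nucleotide supply. All of 12 mitosis members lacked an E2F word, while 6 of 12 replication members held one, and Mcm6 held 3. The cyclins and their kinases are in neither set, and of these Cdk1 and Cdk2 held 1 E2F word each. A CHR word lay in 9 of the 12 mitosis members and in 3 of the 12 replication members, against 21.7% of all genes. CCAAT lay in 27 of the 38 members (71.1%), in 9 of the 12 replication and 10 of the 12 mitosis members, against 41.1% of all genes. In the 150 bases before the start alone, a CHR word lay in 13.2% of the members, against 11.2% of all genes. These matches describe letters only, and the arrays measured no binding.

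Most members were lower in hippocampal culture than in primary hippocampus, and by large factors. In bulk RNA, fewer dividing cells and less RNA per cell cannot be told apart. By limma at an adjusted p under 0.05, 44 of the 49 measured members were lower and 2 were higher, where 36.2% of all genes were lower and 35.9% higher. The 44 include Mybl2, which lay below background on all arrays of both groups, so that its direction is uncertain. The median log2 difference of the members was -2.47, against 0.02 over all genes, and 39 of them fell at least 2-fold. The arrays of the culture and the tissue did not overlap for 41 members that were lower, where 22.5% of all genes were lower without overlap. The members that missed the threshold were Cdk6, Ccnd2 and Foxm1.

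In cortex the same comparison gave a smaller shift. In cortical culture against primary cortex 40 members were lower and 5 higher, where 35.9% of all genes were lower and 35.3% higher. The median log2 difference was -1.24, against 0.01 over all genes, with 35 members at least 2-fold lower. There were 31 members lower without overlap, where 22.1% of all genes were. The heatmap of all arrays shows both shifts.

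**Figure D1:**
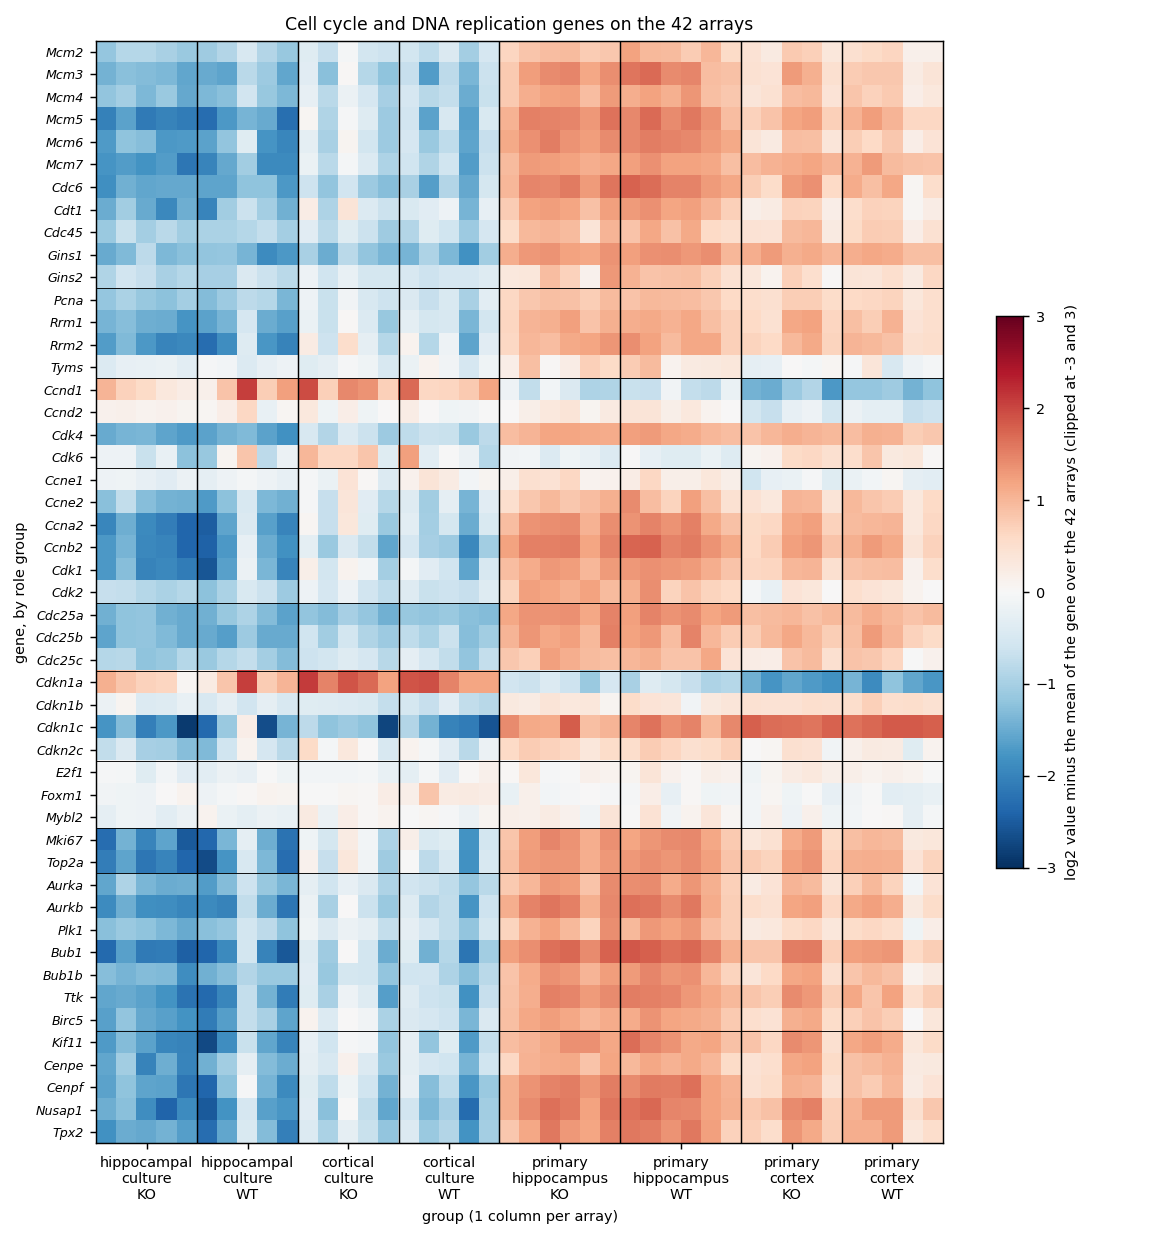
Heatmap of the 49 measured genes (rows, by role group) on the 42 arrays (columns, by system and genotype), coloured by the log2 value minus the mean of the gene over all arrays, clipped at -3 and 3. Most rows are blue in both cultures and red in both tissues, with Ccnd1 and Cdkn1a reversed, and the WT 2644 array, the third of the WT hippocampal cultures, is paler than its neighbours.

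The origin licensing factors and the helicase were lower as a group in both cultures. All 11 measured members, Mcm2 to Mcm7, Cdc6, Cdt1, Cdc45, Gins1 and Gins2, were lower in each comparison. Mcm5, a subunit of the MCM ring, lay between 6.04 and 6.94 (median 6.32, 10 arrays) in hippocampal culture, against 9.26 to 10.03 (median 9.77, 12 arrays) in primary hippocampus. This was 9.88-fold lower, with a log2 difference of -3.30 (SE 0.15, adjusted p = 1.76e-21 by limma). Every culture array thus lay far below every tissue array. Mcm2, another subunit of the ring, lay between 7.52 and 8.21 (median 7.77) in hippocampal culture, against 9.26 to 9.90 (median 9.56) in primary hippocampus. Cortical culture arrays had between 7.68 and 8.63 (median 8.14), against 8.83 to 9.47 (median 9.15) in primary cortex, again without overlap. Gins1, part of the GINS complex that activates the helicase, had the largest fall of the group in cortex, at -2.31 (SE 0.10). Cdc6, which loads the ring, was on all 10 arrays of both cultures below the background of 5.16 log2 set by genes silent in brain. It was therefore at least 3.54-fold lower in hippocampal culture than in primary hippocampus, and at least 2.32-fold lower in cortical culture than in primary cortex.

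The clamp and the enzymes of nucleotide supply followed with less uniform values. Rrm2, the small subunit of ribonucleotide reductase, averaged 7.28 ± 0.52 in hippocampal culture (SD, n = 10) and 10.03 ± 0.23 in primary hippocampus (SD, n = 12), a difference of -2.75 (SE 0.18). In cortical culture it averaged 8.59 ± 0.63 (SD, n = 10), against 9.77 ± 0.23 in primary cortex (SD, n = 10), a difference of -1.18 (SE 0.19) with overlap of the arrays. Rrm1, the large subunit, had differences of -2.39 (SE 0.14) and -1.32 (SE 0.14) in hippocampus and cortex. Tyms, thymidylate synthase, was below background on all 10 hippocampal culture arrays and at background on 5 of the 12 tissue arrays, which leaves a bound of at least 1.12-fold.

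The G1 cyclins and kinases did not move together. Ccnd1, cyclin D1, rose in both cultures: it lay between 9.53 and 11.44 (median 10.08) in hippocampal culture, against 8.44 to 9.29 (median 8.68) in primary hippocampus. The log2 difference was 1.32 (SE 0.17), and in cortex it was 2.38 (SE 0.18). Cortical culture values of Ccnd1 lay between 9.98 and 11.32 (median 10.36), against 7.65 to 8.49 (median 8.17) in primary cortex. Neither pair overlapped. Ccnd2, cyclin D2, differed by -0.08 (SE 0.08) between hippocampal culture and its tissue, which missed the threshold, and was 0.45 higher (SE 0.08) in cortical culture than in primary cortex. Cdk4, the kinase partner of both cyclins, fell in both cultures, by 6.22-fold in hippocampal culture against primary hippocampus and by 3.25-fold in cortical culture against primary cortex. Cdk6, its close relative, differed by -0.12 and -0.14, neither past the threshold. A cyclin that was higher thus stood beside a kinase partner that was lower on the same arrays.

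Among the cyclins and kinases of S phase and mitosis, all 6 measured members were lower in hippocampal culture, and 5 of 6 in cortical culture. Ccna2, cyclin A2, had a difference of -3.06 (SE 0.18) in hippocampus and -1.37 (SE 0.18) in cortex. Ccnb2, cyclin B2, had -3.17 (SE 0.18) and -1.91 (SE 0.19). Ccne1, cyclin E1 of the G1 to S transition, was the exception in cortex, where it rose by 0.28 (SE 0.08) in culture with overlapping arrays. The CDC25 phosphatases, which remove the inhibitory phosphate from the kinases, were lower in both comparisons for all 3 genes. Cdc25a averaged 6.91 ± 0.20 in hippocampal culture (SD, n = 10) and 9.55 ± 0.11 in primary hippocampus (SD, n = 12), a 6.24-fold fall with little spread on either side. Cdc25b and Cdc25c were below background on all hippocampal culture arrays, so that their falls were at least 4.51-fold and 2.33-fold.

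The CDK inhibitors split. Cdkn1a, which encodes p21, rose: it lay between 8.36 and 10.38 (median 9.09) in hippocampal culture, against 7.20 to 7.91 (median 7.67) in primary hippocampus. In cortical culture it lay between 9.49 and 10.41 (median 9.90), against 6.41 to 7.10 (median 6.67) in primary cortex. These were log2 differences of 1.51 (SE 0.15) and 3.22 (SE 0.15), the larger a 9.32-fold rise. Cdkn1c, which encodes p57, went the other way. It lay between 5.58 and 8.65 (median 6.71) in hippocampal culture, against 9.35 to 10.28 (median 9.85) in primary hippocampus. Cortical culture arrays had between 5.70 and 7.68 (median 7.14), against 10.06 to 10.29 (median 10.20) in primary cortex. Its tissue arrays were tightly grouped and its culture arrays spread over about 2 to 3 log2 units, and the differences were -3.02 (SE 0.24) and -3.33 (SE 0.25). Cdkn1b, which encodes p27, was lower by smaller steps, at -0.61 and -1.05, and Cdkn2c, the INK4 inhibitor p18, had -1.37 in hippocampus and -0.22 in cortex, the last of which missed the threshold.

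The transcription factors among the members had small differences or no usable direction. E2f1, an activator of replication genes, had differences of -0.30 (SE 0.06) in hippocampus and -0.23 (SE 0.06) in cortex. Mybl2, the MYB protein of the MuvB complexes, was below background in every group so that no direction is given for it. Foxm1, the activator of mitosis genes, differed by 0.02 in hippocampus, which missed the threshold, and rose by 0.34 (SE 0.07) in cortical culture. Another probe set of Foxm1, with a mean of 4.74 over all arrays, was called in the opposite direction there, so its direction in cortex depends on the probe set.

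The proliferation antigen Mki67 and the topoisomerase Top2a, both used as markers of cycling cells, were among the members with the largest falls in hippocampus. Mki67 lay between 6.75 and 9.01 (median 7.49) in hippocampal culture, against 10.06 to 10.73 (median 10.56) in primary hippocampus. Cortical culture arrays had between 7.47 and 9.52 (median 8.87), against 9.57 to 10.54 (median 10.01) in primary cortex. Top2a lay between 6.54 and 8.75 (median 7.20) in hippocampal culture, against 10.07 to 10.63 (median 10.52) in primary hippocampus. In cortical culture it lay between 7.40 and 9.56 (median 8.74), against 9.63 to 10.58 (median 10.13) in primary cortex. None of these pairs overlapped, although the gap between the highest cortical culture and the lowest cortex array was small for both genes. The Mki67 differences were -2.97 (SE 0.20) and -1.16 (SE 0.21), and those of Top2a were -3.10 (SE 0.19) and -1.39 (SE 0.20).

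**Figure D2:**
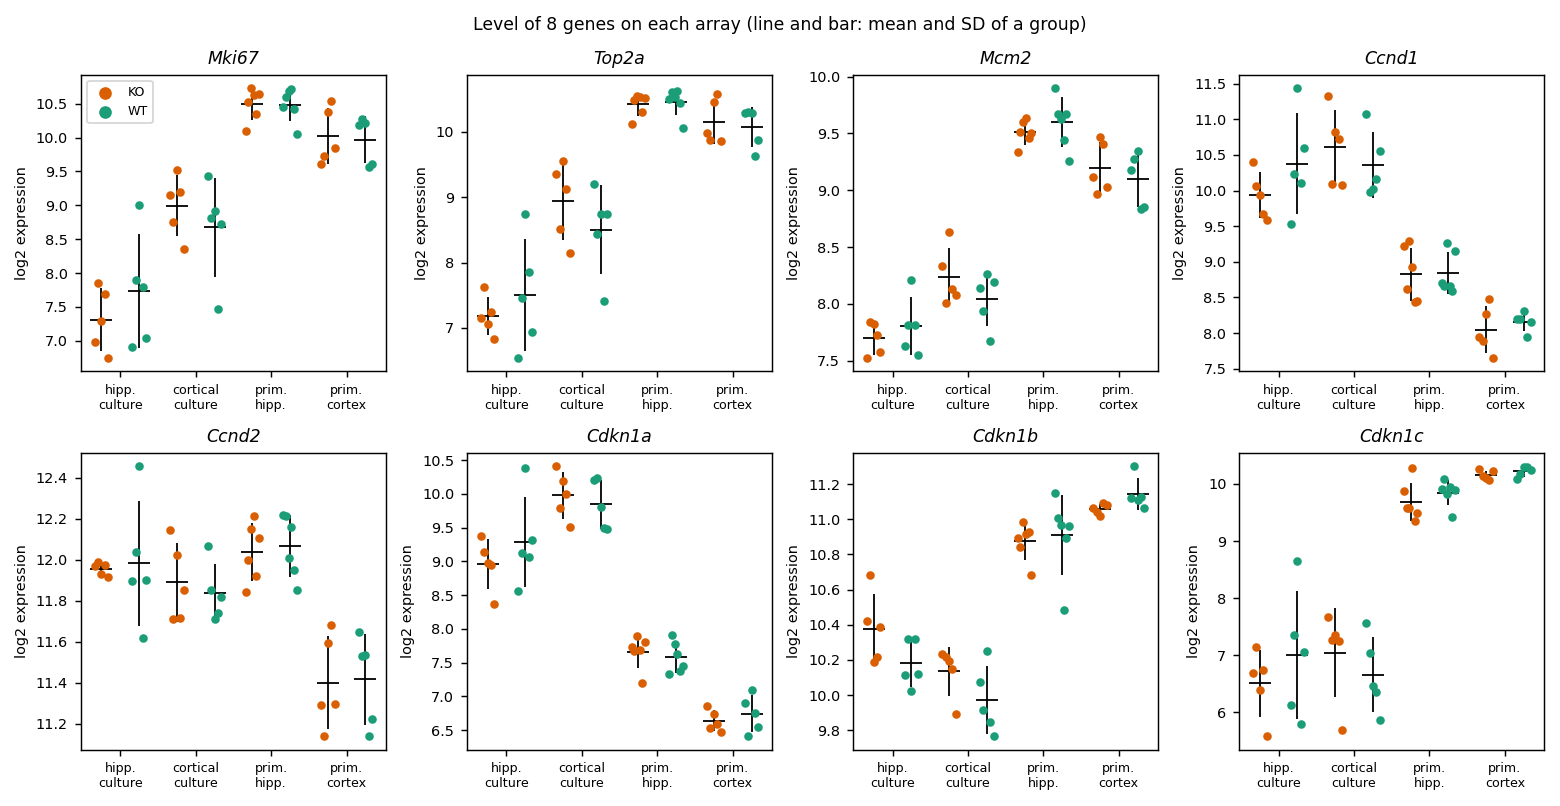
Log2 expression of 8 genes on each array, by system, with KO (orange) left of WT (green); the line and bar are the mean and SD of a group of 5 or 6 arrays. Mki67, Top2a, Mcm2 and Cdkn1c are low in cultures, while Ccnd1 and Cdkn1a are high in cultures, and WT 2644 in hippocampal culture is the highest point of its group except for Cdkn1b.

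All 7 mitotic kinases, checkpoint and passenger proteins and all 5 spindle and kinetochore proteins were lower in both cultures. Bub1, a kinase of the spindle checkpoint, had the largest fall in hippocampus among the members not limited to a bound, although only 6 of its 10 culture arrays were above background. It averaged 5.41 ± 0.58 in hippocampal culture (SD, n = 10) and 8.97 ± 0.24 in primary hippocampus (SD, n = 12), an 11.8-fold difference. In cortical culture it was 3.99-fold lower than in primary cortex (SE 0.21 on the log2 scale). Aurkb, the kinase of the chromosomal passenger complex, fell by 3.09 on the log2 scale (SE 0.17) in hippocampal culture, where only 3 of 10 arrays were above background so that the size is uncertain, and Ttk, the checkpoint kinase MPS1, fell by 1.72 (SE 0.18) in cortical culture. Nusap1 and Kif11, proteins of the spindle, had differences of -3.13 (SE 0.20) and -2.96 (SE 0.18) in hippocampus, with Kif11 above background on only 4 of 10 culture arrays. In cortex the leading ones were Nusap1 at -2.03 (SE 0.20) and Tpx2, an activator of Aurora A, at -1.75 (SE 0.18). Secondary probe sets of Cdc45, Top2a and Tpx2, and of Tyms in hippocampus, were called in the opposite direction to the one used. These lay near or below background, with means over all arrays up to 5.33.

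**Figure D3:**
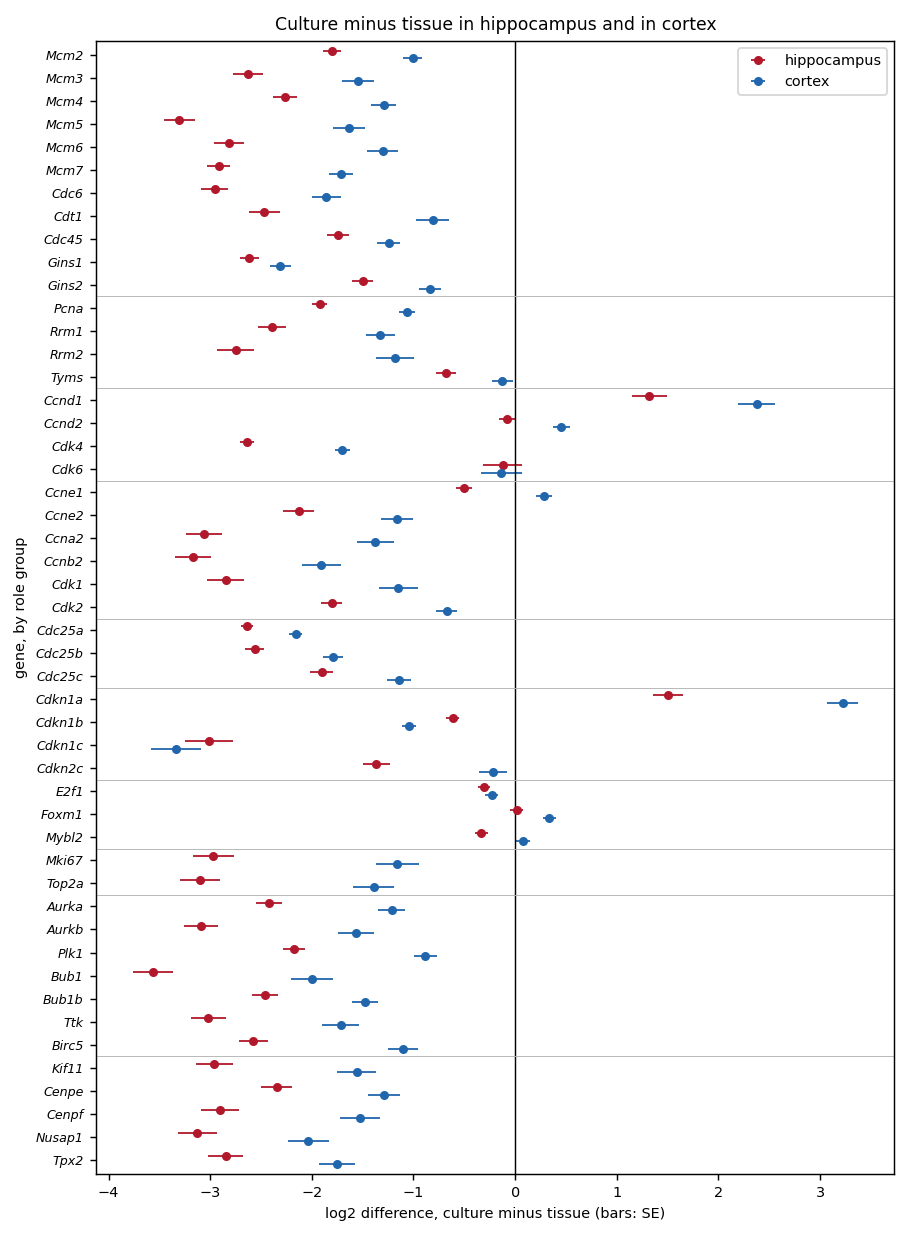
Log2 difference of culture minus tissue for each of the 49 genes, in hippocampus (red) and in cortex (blue), with standard errors as bars. Hippocampus lies left of cortex for nearly all genes, while Ccnd1 and Cdkn1a lie to the right of 0 in both.

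Genes of the same pathways outside the list behaved in a similar way. Of 39 other replication genes 37 were lower in hippocampal culture than in primary hippocampus, with a median of -1.95, and 37 were lower in cortical culture than in primary cortex, with a median of -1.20. Uhrf1, which maintains DNA methylation at the fork, had -3.35 in hippocampus. Of 43 other mitosis genes 42 and 41 were lower, with medians of -2.43 and -1.26, led in hippocampus by Ube2c, an enzyme of the anaphase-promoting complex, at -3.75. Pttg1, the securin, did not pass the threshold in hippocampus, at 0.06, and was 0.86 higher in cortical culture, where Ckap2, a spindle protein, did not pass it either, at -0.01. Among 28 other regulators the picture was mixed, with 5 higher and 18 lower in hippocampus and 8 higher and 17 lower in cortex. Cdkn2b, the INK4 inhibitor p15, was higher by 2.24 and 2.06, and Ccng1, a p53 target, by 1.34 and 1.83. Among the E2F factors of this list E2f2, E2f5, E2f7 and E2f8 were lower in both cultures, with differences of -2.45 and -1.80 for E2f7, a repressor, while E2f4 was 0.22 and 0.26 higher.

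Markers of several cell types also differed between culture and tissue, in both directions. All 10 markers of radial glia and intermediate progenitors were lower in hippocampal culture, where their summed linear signal was 8352 to 20656, against 21982 to 25937 in primary hippocampus. In cortical culture 6 of the 10 were lower and 3 higher, and the sums overlapped, at 13499 to 23053 against 13026 to 18469 in primary cortex. Eomes, which defines intermediate progenitors, and the Notch target Hes5 were below background in both cultures. All 10 microglia markers were lower in both cultures, 8 of them below background there, with sums of 226 to 315 in hippocampal culture and 926 to 1657 in primary hippocampus, and of 209 to 252 in cortical culture and 702 to 833 in primary cortex. Endothelial markers were lower for 7 of 9 in each comparison, and Cldn5, Cdh5, Tek and Flt1 were below background in the cultures. Markers of mature neurons and synapses went the other way, with 10 of 10 higher in hippocampal culture and sums of 23261 to 36554, against 3965 to 5813 in primary hippocampus. In cortex 9 of these 10 were higher in culture, with sums of 19247 to 28898 in cortical culture and 7805 to 9727 in primary cortex. Astrocyte markers were higher for 6 of 10 in hippocampal culture and for all 10 in cortical culture. Immature neuron markers were lower for 9 and for 8 of 10, with sums of 13155 to 22263 in hippocampal culture, against 34885 to 40816 in primary hippocampus. Of these markers, the neuronal Grin2a, the microglial Aif1 and the endothelial Pecam1 and Emcn lay below background in culture and tissue of both regions. The microglial C1qb and C1qc and the immature neuron marker Nhlh1 did so in cortex. Their direction is uncertain there. The part of these cells in the differences of the members was not tested.

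The shift was larger in hippocampus than in cortex for most members. The difference of the 2 differences, tested within the same fit, was negative for 44 members and positive for 1 at an adjusted p under 0.05, where 17.1% of all genes were negative and 14.9% positive. Its median was -1.08 over the members, against 0.00 over all genes. Mki67 differed by -1.81 (SE 0.29, adjusted p = 7.67e-06 by limma), Top2a by -1.71 (SE 0.28) and Cdk1, the mitotic kinase, by -1.70 (SE 0.27). Cdkn1a differed by -1.71 (SE 0.21) as well, its rise in culture being the smaller one in hippocampus. Cdkn1b, at 0.43 (SE 0.09), was the only member past the threshold in the other direction. Gins1, Cdk6, Cdkn1c and E2f1 missed it. Mybl2, below background in every group, is counted among the 44. So are Cdc6, Tyms, Cdc25b and Cdc25c, whose falls in hippocampus are known only as bounds, so that their difference between the regions is uncertain.

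The regions also differed within each kind of sample. Among the tissues, primary hippocampus held 28 members higher and 2 lower than primary cortex, where 19.6% of all genes were higher and 16.7% lower. The 28 include Mybl2, which lay below background on all arrays of both tissues. Tyms, also among them, was above background on 7 of 12 hippocampus and 1 of 10 cortex arrays. Its probe sets were called in opposite directions between the tissues, so its direction depends on the probe set. The median was 0.41, against -0.01 over all genes, and all of these differences were under 2-fold. Mcm6 averaged 9.91 ± 0.14 in primary hippocampus (SD, n = 12) and 9.10 ± 0.27 in primary cortex (SD, n = 10), a difference of 0.81 (SE 0.15). Cdk2, the kinase of cyclins E and A, was 0.77 higher (SE 0.10) and Cdkn1a 0.93 higher (SE 0.15). Ccnd2, a cyclin of cortical progenitors, lay between 11.84 and 12.22 in primary hippocampus, against 11.14 to 11.68 in primary cortex, so that the regions did not overlap. In all, 8 members were higher without overlap, where 8.32% of all genes were. Cdk6, at -0.63 (SE 0.19), and Cdkn1b, at -0.21 (SE 0.07), were lower in hippocampus. Mki67 and Top2a were higher by 0.50 and 0.33, neither past the threshold (adjusted p = 0.0583 and 0.214 by limma). Within litters, however, Mki67 was higher in hippocampus than in cortex in 10 of 10 litters, by 0.08 to 0.86, and Top2a in 9 of 10, by -0.04 to 0.82. With the litter as a fixed block over the tissue arrays, a fit added after seeing the data, both passed, at 0.46 (SE 0.07, adjusted p = 6.26e-05 by limma) for Mki67 and 0.30 (SE 0.07, adjusted p = 0.00384) for Top2a. In that fit 42 members were higher and 3 lower, where 24.6% of all genes were higher.

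In these tissues 22 of 39 other replication genes and 29 of 43 other mitosis genes were higher in hippocampus and none lower. Beside them, 9 of 10 markers of radial glia and intermediate progenitors were higher, with the summed signals given above not overlapping between the regions, and 9 of 10 microglia markers were higher too. All 10 meningeal and 8 of 10 choroid plexus markers were higher in hippocampus. Of these markers, the meningeal Lum and Aldh1a2, the choroid plexus Kl, Aqp1 and Slc4a5 and the microglial Aif1 lay below background in both tissues. Their direction is uncertain. The part of these cell types in the members' differences was not tested.

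Between the cultures the order of the regions was the reverse. Hippocampal culture held 40 members lower and 1 higher than cortical culture, where 13.5% of all genes were lower and 14.7% higher. Of the 40, Cdc6 and Mybl2 lay below background on all arrays of both cultures, and Cdc25c on all but 1, so that their direction is uncertain. The median was -0.65, against -0.01 over all genes, and 10 members were at least 2-fold lower. Top2a averaged 7.34 ± 0.63 in hippocampal culture and 8.72 ± 0.64 in cortical culture (SD, n = 10 each), a 2.60-fold difference (log2 -1.38, SE 0.20, adjusted p = 1.50e-06 by limma). Mki67 was lower by 2.48-fold, Rrm2 by 2.47-fold and Ccna2 by 2.35-fold. Most arrays of the 2 cultures overlapped, however: Cdk4 was the only member lower without overlap, where 1.39% of all genes were. It averaged 8.05 ± 0.16 in hippocampal culture and 8.83 ± 0.23 in cortical culture. Cdkn1b was the member that was higher, by 0.23 (SE 0.07).

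A single order of the 4 system means was shared by 39 of the 49 members, namely primary hippocampus, primary cortex, cortical culture and hippocampal culture from high to low. This order was found in 9.38% of all genes. Neighbours in it often overlapped in their arrays, as given above. Cdc6 and Tyms, counted among the 39, were below background on all arrays of both cultures, and Cdc25c on all but 1. The order of the cultures is uncertain for these genes. Ccnd1, Cdkn1a and Foxm1 had cortical culture at the top, followed by hippocampal culture, primary hippocampus and primary cortex.

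The oligodendrocyte lineage moved with the difference between the cultures. Of 9 measured markers 7 were lower in hippocampal culture, and their summed signal was 1941 to 3124, against 3696 to 7678 in cortical culture. Pdgfra, which marks oligodendrocyte precursors, a dividing glial cell, lay between 4.96 and 6.01 in hippocampal culture and between 7.45 and 10.27 in cortical culture, so that the 2 ranges were far apart. Olig2 was lower by 3.78 on the log2 scale and lay below background in hippocampal culture. Gpr17 and Mog lay below background in both cultures, so that their direction is uncertain. Markers of radial glia and intermediate progenitors were lower for 4 and higher for 1 of 10, with a median sum of 11730 in hippocampal and 17714 in cortical culture and overlapping arrays. Choroid plexus sums were higher in hippocampal culture without overlap, at 826 to 2830, against 299 to 614 in cortical culture, and 5 of 10 markers of mature neurons were higher there. Of the astrocyte markers 2 were higher and 1 lower of 10. The part of these cells in the members' values was not tested beyond the following comparison of arrays.

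Single arrays differed as well. The level of the members on an array, taken as the median over the 49 genes of the log2 value minus the mean of each gene, lay between -1.54 and -1.20 on 9 of the 10 hippocampal culture arrays and at -0.48 on the other, WT 2644. This array held the highest value of the 10 for 42 of the 49 members, and it also held the lowest Tubb3, a tubulin of young neurons, at 9.32, where the other arrays lay between 9.90 and 10.81. Its summed signal was the highest of the 10 for radial glia and intermediate progenitors, at 20656 (the others 8352 to 12733), and for meninges and fibroblasts, at 8148 (the others 1019 to 3847), and was also the highest for endothelium and the oligodendrocyte lineage. The part of these cells in its level was not tested. In cortical culture from the same litter the level was -0.60, within the range of the others. Cortical culture arrays spread from -1.38 on WT 3569, the lowest for 35 members, to -0.04 on KO 2221, the highest for 27 members. KO 4236 held the lowest level of the KO arrays in both cultures. In tissue the levels lay between 0.72 and 1.33 in hippocampus and between 0.27 and 1.01 in cortex.

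Top2a was set against 1 defining gene each of 4 cell types over the 10 arrays of each culture, 8 relations in all with p adjusted over them. In cortical culture it rose with Pdgfra (Pearson r = 0.78, permutation p = 0.00743, adjusted p = 0.0594, Spearman rho = 0.67, permutation p = 0.0392, adjusted p = 0.198). Without KO 2221 and WT 3569, the 2 arrays farthest from the median of Pdgfra, r was 0.38 (permutation p = 0.330). Leaving out the extremes of Pdgfra narrows its range, which can itself lower r. Whether the relation rests on those arrays cannot be told from this. In hippocampal culture r with Pdgfra was 0.17 (permutation p = 0.637), and 0.56 without KO 2620 and WT 3569 (permutation p = 0.146). There Top2a ran against Tubb3 (r = -0.71, permutation p = 0.0243, adjusted p = 0.0972, rho = -0.33), and r was 0.23 without WT 2644 and WT 3569. The microglia gene Csf1r gave r = -0.63 in hippocampal culture (permutation p = 0.0608, adjusted p = 0.162) and -0.29 in cortical culture. The astrocyte gene Slc1a3 gave 0.24 and 0.27. None of the 8 relations passed the threshold after adjustment.

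**Figure D4:**
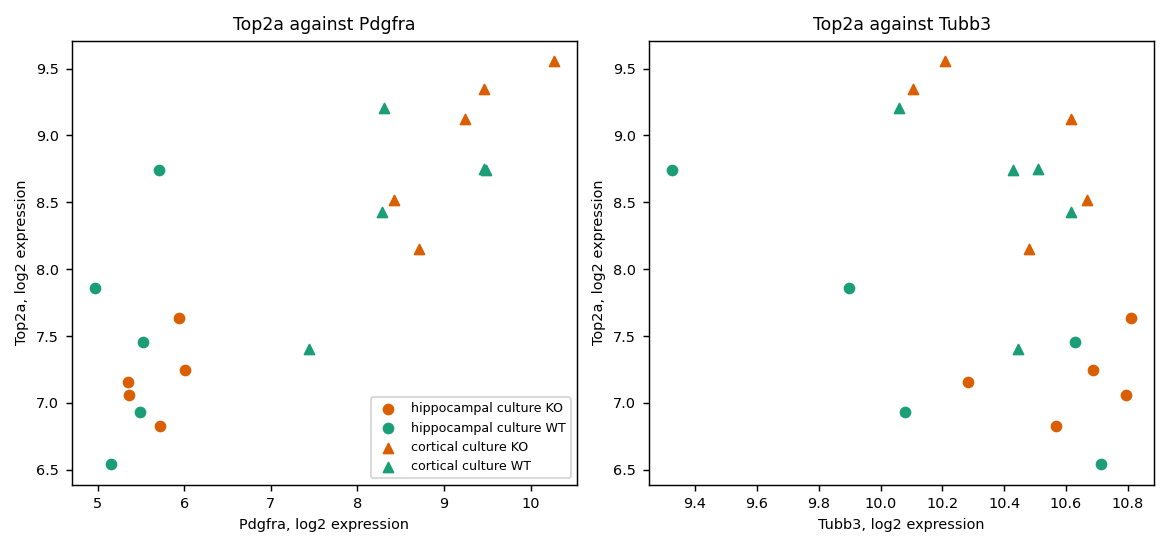
Log2 expression of Top2a against that of Pdgfra (left) and Tubb3 (right) on the 20 culture arrays, with circles for hippocampal and triangles for cortical culture, orange for KO and green for WT. The cultures form separate groups along Pdgfra, and WT 2644 lies alone at the lowest Tubb3.

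The loss of *Fmr1* was compared next, in each system, at the unadjusted p under 0.05 used in the study. In hippocampal culture 1 member was higher and 1 lower in KO, where 6.87% of all genes were higher and 2.67% lower, and none had an adjusted p under 0.05 (the lowest was 0.515 by limma). Cenpe, the kinesin of the kinetochore, was at 5.54, 6.05, 5.09, 5.63 and 5.13 on the KO arrays, against 5.66, 6.06, 6.84, 5.81 and 5.61 on the WT arrays. The genotypes overlapped, the highest value was that of WT 2644, and KO 2221 and KO 4236 lay below background. The difference was -0.51 (SE 0.23), and without WT 2644 it was -0.29 and missed the threshold, as it did without KO 2221 (-0.41), KO 4236 (-0.42) or WT 2643 (-0.49). Cdkn1b was at 10.42, 10.68, 10.19, 10.22 and 10.38 in KO, against 10.12, 10.32, 10.03, 10.32 and 10.12 in WT, a difference of 0.20 (SE 0.10, adjusted p = 0.562 by limma) with overlapping genotypes. Without KO 2038, which held the highest value, it was 0.12 and missed the threshold, as it did without WT 2644 (0.16), WT 2236 (0.18), WT NT (0.18), KO 2037 (0.19) or KO 4236 (0.20). The number of members past the threshold was 8, all lower, without WT 2236, 1 without KO 2038 or KO 2221, and 0 without KO 4236 or WT 2644.

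As a group the members lay slightly lower in KO hippocampal cultures, with 40 negative and 9 positive differences and a median of -0.12, against 0.01 over all genes. This rested on WT 2644: without it the median was 0.02, with 28 positive and 21 negative differences. Beside this, 6 of 10 markers of immature neurons were higher in KO hippocampal culture, among them Dcx by 0.53 and Tubb3 by 0.50, and none lower. Without WT 2644 there were 3, with Dcx at 0.50 and Tubb3 at 0.30. Their part in the members' values was not tested.

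In cortical culture the differences ran the other way. There 2 members were higher and 1 lower in KO, where 6.17% of all genes were higher and 4.05% lower, and none had an adjusted p under 0.05 (the lowest was 0.337). Mcm7 was at 10.12, 9.53, 10.27, 9.92 and 9.40 in KO, against 9.74, 9.43, 9.73, 8.66 and 9.69 in WT, a difference of 0.40 (SE 0.17). Mcm5 was at 8.39, 7.42, 8.29, 7.94 and 7.24 in KO, against 7.75, 6.72, 7.84, 6.70 and 7.86 in WT, a difference of 0.48 (SE 0.22). The genotypes overlapped for both. Without WT 3569, the low array, Mcm7 differed by 0.20 and Mcm5 by 0.31, neither past the threshold, and Mcm7 also missed it without KO 2037 (0.33) or KO 2221 (0.29). Mcm5 missed it without KO 2037 (0.35), KO 2221 (0.37), KO 2620 (0.46) or WT 2643 (0.32) as well.

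Foxm1 was at 6.15, 6.14, 6.22, 6.19 and 6.38 in KO cortical cultures, against 6.35, 7.001, 6.40, 6.43 and 6.38 in WT. Its difference was -0.30 (SE 0.09, adjusted p = 0.337 by limma), and 1 WT array, WT 2643, stood far above the other 9. Without WT 2643 the difference was -0.18 and still passed the unadjusted threshold. In total 45 members had a positive and 4 a negative difference in cortical culture, with a median of 0.25 against 0.01 over all genes. The median was 0.09 without WT 3569 and 0.39 without KO 4236. The number of members past the threshold was 19 without KO 4236, 18 of them higher, 13 without WT 2236, 5 without WT 2644 and 1 without KO 2037. Among the other pathway genes, 5 of 39 replication genes, 6 of 43 mitosis genes and 4 of 28 regulators were higher and none lower, led by the mitosis gene Cdca8 at 0.55. In KO hippocampal culture the calls of these lists were mixed, with Gins4, E2f3, Cdkn2d and Ccng2 higher and Pole, Rpa1 and E2f4 lower. Single arrays were not left out for these genes. Of the oligodendrocyte lineage markers 2 of 9 were higher in KO cortical culture, and their part was not tested.

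In the tissues no member passed the unadjusted threshold, though 1 did in primary hippocampus without KO 4237 or without WT 2643. In primary hippocampus the members' differences lay between -0.19 and 0.18, with a median of -0.03, where 0.594% of all genes were higher and 0.945% lower in KO. In primary cortex they lay between -0.18 and 0.21, with a median of 0.06, where 1.23% of all genes were higher and 0.434% lower. The standard errors there were of about the same size as in the cultures, because 1 spread was estimated over all arrays. The level of the members spread more in hippocampal and cortical culture (SD 0.31 and 0.38) than in primary hippocampus and primary cortex (SD 0.19 and 0.27). For such members the common spread may give standard errors too small in the cultures and too large in the tissues.

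**Figure D5:**
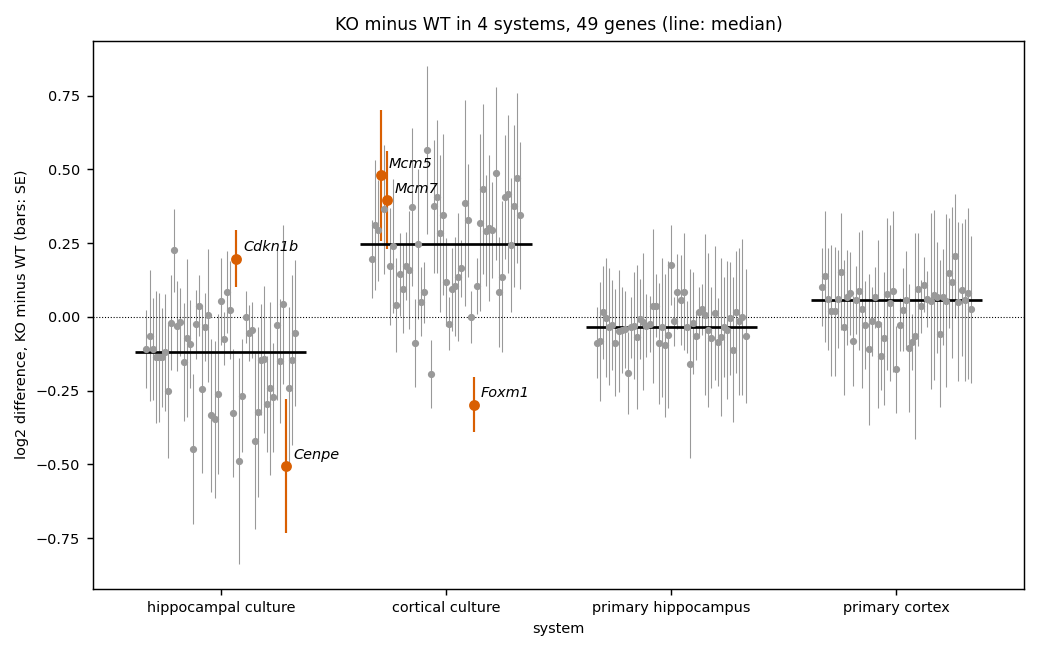
Log2 difference of KO minus WT for the 49 genes in each of the 4 systems, with standard errors as bars, the median as a black line and the genes past the unadjusted threshold in orange with their names. The medians are -0.12 in hippocampal culture and 0.25 in cortical culture, and the points of the tissues lie close to 0.

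Whether the genotype difference itself differed between systems was tested in the same fit. Between hippocampal and cortical culture 5 members passed the unadjusted threshold, all lower in hippocampal culture, where 2.54% of all genes were lower and 2.01% higher. They were Cenpe (-0.75, SE 0.32), Ccna2 (-0.74, SE 0.37), Cdkn2c (-0.59, SE 0.27), Plk1, the polo-like kinase (-0.59, SE 0.23), and Mcm7 (-0.53, SE 0.24), all with adjusted p = 0.984 by limma. The count turned on single arrays. It was 1 without KO 4236 or WT 2644 of the hippocampal cultures or without KO 2221 or WT 3569 of the cortical ones, and 2 without KO 2221 of the hippocampal or KO 2037 of the cortical ones. Without WT 2643 of the hippocampal cultures it was 3. It was 20 without KO 4236 and 15 without WT 2236 of the cortical cultures, and 19 without WT 2236, 12 without KO 2038 and 10 without WT NT of the hippocampal ones. Without KO 2038 of the cortical cultures it was 9. Between cortical culture and primary cortex Foxm1 passed, at -0.41 (SE 0.13), and 3 members did without KO 4236 and 2 without WT 2236 or WT 2644 of the cortical cultures, where 3.07% of all genes were lower and 1.58% higher. Between hippocampal culture and primary hippocampus no member did, and 1 did without WT 3104 of the tissue or without KO 2038, KO 2221, KO 2620 or WT 2236 of the cultures, where 1.34% of all genes were lower and 3.24% higher.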

How the data were processed

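The 42 samples, 1 Affymetrix whole-genome mouse array each, were grouped by the labels into 4 systems and 2 genotypes. The authors made the deposited log2 values with the robust multi-array average (RMA) of the Affy package from .CEL files, which corrects background, sets the arrays to 1 distribution and summarises each probe set. Whether all arrays went through RMA in 1 run is not given in the sources used here, and any difference in total RNA between samples is lost in this step. Array medians lay between 5.40 and 5.56. Precision is limited by how many arrays each group had.

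Of 45101 probe sets 64 controls were left out. The other 45037 were fitted with limma 3.58.1 in R 4.3.3 (lmFit on 8 group means over all 42 arrays, then eBayes), and p-values were adjusted by Benjamini-Hochberg over all of them. KO against WT was called at the unadjusted p under 0.05 of the methods, and all other comparisons at an adjusted p under 0.05. A gene was read from its probe set of 1 gene with the highest mean, through the platform annotation (34945 probe sets with 1 gene, 932 with several, 9160 with none). Background was the 95th percentile of 123 probe sets of olfactory receptor, vomeronasal receptor and keratin-associated genes, 5.16 log2. Where all arrays of the dimmer group lay below it, a bound was given, the mean of the brighter group against the background.

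The genes named were, for each comparison, the 2 called members of each role group with the largest difference, those that moved against the majority, and all members called in KO against WT, besides Mki67, Top2a, Mcm2, Ccnd1, Ccnd2, Cdkn1a, Cdkn1b and Cdkn1c. The members and lists were chosen with earlier results of these data known. Correlations used 100000 permutations, two-sided, in SciPy 1.17.1. Whether replicates of a group came from separate cultures beyond the litter was not stated, so that p-values measure the spread between these arrays. The paper describes its KO and WT replicates as pairs handled on the same day. The labels do not name these pairs, and the fit held no term for them.

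Of 12 litters 10 were on arrays of all 4 systems. Deviations of same-litter arrays from their group means correlated with a median r of 0.28 between the cultures (-0.31 to 0.65) and of 0.33 between the tissues (0.18 to 0.48), and near 0 between culture and tissue, so the litter was also tried as a random block. The script for the fit was tested on simulated data. Other alternatives were the probe set with the smallest p, arrays centred on their median, only the arrays compared, only members above background, eBayes with trend and robust, array weights, stricter thresholds, a shorter promoter window, and each array left out in turn. The litter as a fixed block over the tissue arrays, and the immature neuron markers without WT 2644, were added after seeing the data.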

Additional observations from a re-analysis of the deposited data

Results flagged for a closer look

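In 9 of 80 groups of 5 or 6 arrays tested, 1 array stood apart from the others by Dixon's criterion. For a single group chance alone gives this in about 1 in 20 cases. The 80 groups are not independent, since the same arrays recur over related genes. Cenpe, Mcm5, Mcm7 and Foxm1 were included because they were called in KO against WT. The 9 groups can therefore not be read as an excess over chance. Top2a was 10.0679 in primary hippocampus of WT NT, where the other WT arrays lay between 10.44 and 10.63. Cdkn1a was 7.1952 in primary hippocampus of KO 4236, against 7.66 to 7.89 on the other KO arrays. Cdkn1b was 11.3007 in primary cortex of WT 2643, against 11.07 to 11.12 on the others.

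In cortical culture KO 4236 stood apart for 2 inhibitors, with Cdkn1b at 9.8932 (the other KO arrays 10.15 to 10.23) and Cdkn1c at 5.6969 (7.24 to 7.68). WT 3569 stood apart for Mcm7, at 8.6629 (9.43 to 9.74), and for the level of all members, at -1.3781 (-0.67 to -0.40). WT 2643 had 7.0014 for Foxm1 (6.35 to 6.43). In hippocampal culture the level of all members was -0.4838 on WT 2644 (-1.51 to -1.22).

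The difference of culture and tissue differed between hippocampus and cortex for 45 members by limma's test of the interaction. The difference of KO and WT differed, at an unadjusted p only, between cortical culture and primary cortex for Foxm1 (-0.4071), and between hippocampal and cortical culture for Mcm7 (-0.5341), Ccna2 (-0.742), Cdkn2c (-0.5941), Plk1 (-0.5919) and Cenpe (-0.75). None of these 6 values passed after adjustment.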

How the results depend on the processing

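The comparisons of cultures and tissues changed little: without 1 array at a time the called members numbered 46 for hippocampal culture against primary hippocampus, 45 for cortical culture against primary cortex, 27 to 35 for primary hippocampus against primary cortex, 38 to 43 for hippocampal against cortical culture, and 45 to 46 for the interaction. With a 2-fold minimum, 0 members remained called between the tissues and 10 between the cultures. With the litter as a replicate block the counts were 46, 45, 34, 41 and 45, with 2 and 3 for KO against WT in hippocampal and cortical culture, and among the named genes the block changed the call of Mki67 alone, which passed between the tissues (0.49, adjusted p = 0.0449 by limma). With the litter as a fixed block over the tissue arrays alone, added after seeing the data, 45 members were called between the tissues.

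The counts for KO against WT were less stable. In hippocampal culture they were 0 to 8 without 1 array, 4 with the probe set of smallest p, and 0 with only the arrays compared, with array weights or with adjusted p. In cortical culture they were 1 to 19 without 1 array, 6 with the smallest p, 5 with centred arrays, 1 with only the arrays compared, 15 with array weights and 0 with adjusted p. In primary hippocampus they were 0 to 1 without 1 array and 1 with the smallest p, and in primary cortex 1 with the smallest p. For the differences between systems, hippocampal against cortical culture gave 1 to 20 without 1 array, 9 with the smallest p and 1 with only the arrays compared. Cortical culture against cortex gave 1 to 3, then 2 with only the arrays compared and 4 with array weights, and hippocampal culture against hippocampus gave 0 to 1, with 1 for the smallest p and 1 for centred arrays. The cause was not tested.

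Without the 2 arrays farthest out, Top2a against Tubb3 in hippocampal culture had r = 0.2301 and against Csf1r in cortical culture r = 0.5289, both of the other sign. In the last 150 bases before the start a CHR word lay in 13.2% of the members and 25.0% of the mitosis members, against 11.2% of all genes. Restricting the arrays to those compared was not run for the interaction, which uses all. Of 544 other values for named genes or marker counts 7 lost and 3 gained their call, and of 1789 without 1 array 23 lost it. Most of these 23 were KO against WT calls of Cenpe, Cdkn1b, Mcm7 and Mcm5. Few of the 1789 values concern these calls, so the total does not show how unstable they were. Values near background limit Cdc6, Cdc25b, Cdc25c, Tyms and Mybl2, and in hippocampal culture Aurkb, Ttk, Kif11, Bub1, Bub1b, Ccnb2 and Cenpe.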
